A study of Mus musculus with 24 samples.

Results

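Arc, Npas4, Nr4a1, Nr4a2, Nr4a3, Dusp1, Ier2 and Btg2 are genes whose mRNA neurons make within minutes of synaptic activity, and their levels were read in the hippocampus of WT and MSK1 kinase dead (MSK1 KD) mice. The 8 genes were taken by symbol from the 49568 symbols in the count files, and all 8 were among the 18482 genes with enough counts to be tested. RNA came from the whole hippocampus of male mice on a C57-Bl/6J background, labelled as 12 weeks old and not used in any earlier experiment. Each genotype was kept either in standard housing (SH), in small groups with bedding and a tube, or in an enriched environment (EE), in large cages with a running wheel, ladder and toys from before birth. MSK1 KD mice carry a point mutation in both copies of their own MSK1 gene, in every tissue, which takes away the activity of the kinase, and they were bred as a line separate from WT, so that the mutation and other differences between the lines cannot be told apart. The comparisons ask whether housing is followed by another level of these genes, and whether that depends on MSK1.

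There were 22 libraries, with 6 in each standard-housed group and 5 in each enriched group, after 33B and 34B, both enriched, had been set aside for poor quality. Depth lay between 8911999 and 56752074 counts on genes, and the lowest count of any of the 8 genes was 74, for Ier2 in library 9. The authors left out another 5 because they resembled their own group poorly, namely 31B and 35A from WT EE, 12 from WT SH, 9 from KD EE and 2 from KD SH, so the main values are over 22 libraries, and those over the 17 that remain are given after them. Markers of the dentate gyrus (242 to 448 CPM, that is counts scaled to library size, summed over 6 genes) and of CA1 and CA3 (799 to 1058 over 7 genes) were present in every library. Library 12 held 327 CPM of 6 thalamus markers, against a median of 96.9, and library 14 held 164 CPM of 6 striatum markers, against a median of 76.0. Library 5 (KD SH), which had the highest Arc and Nr4a1 of its group, held the lowest sums of dentate gyrus and of CA1 and CA3 markers and the highest of 6 cortex markers, 275 CPM against a median of 207. The part of these markers in the results was not tested. Markers of the choroid plexus, 10 genes, ranged from 23.3 to 730.3 CPM and were high in most but not all enriched libraries. The MSK1 gene itself, Rps6ka5, was at 24.9 ± 2.21 CPM (SD, n = 6) in WT SH, 21.4 ± 1.92 (n = 5) in WT EE, 25.4 ± 2.18 (n = 6) in KD SH and 23.6 ± 3.47 (n = 5) in KD EE. Its level does not check the genotype, since the point mutation leaves the transcript in place.

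MSK1 is a nuclear kinase switched on by MAP kinases, and its known targets are the transcription factor CREB and histone H3. Calcium entry at active synapses sends signals through these kinases to CREB and to serum response factor, which bind short elements in front of immediate-early genes, so that these genes are transcribed before any new protein is made. Arc encodes a protein of the postsynaptic density that takes part in removing AMPA receptors from the synapse, while Npas4 and the 3 Nr4a genes encode transcription factors. Npas4 responds closely to calcium entry in neurons and controls genes of inhibitory synapses. The Nr4a proteins are nuclear receptors that work without a known hormone and take part in long-term memory. Dusp1 encodes a phosphatase that switches off MAP kinases, Btg2 an antiproliferative protein that recruits the machinery that shortens mRNA tails, and Ier2 a small nuclear protein.

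In GRCm38 the 8 genes lie apart from each other, with Arc at chr15:74669083-74672570 (minus strand), Npas4 at chr19:4984355-4990316 (minus), Nr4a1 at chr15:101254269-101274795 (plus), Nr4a2 at chr2:57106830-57124003 (minus), Nr4a3 at chr4:48045153-48086447 (plus), Dusp1 at chr17:26505590-26562128 (minus), Ier2 at chr8:84661331-84662852 (minus) and Btg2 at chr1:134075170-134079120 (minus). Their exons add up to between 1522 bases, in the single exon of Ier2, and 5987 bases, in Nr4a3. Only Dusp1 shared exon sequence with another gene, 11 bases with Ergic1 on the opposite strand, and reads from there could not be told apart because they were counted without strand.

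The stretch around the start site was in the RefSeq table (GRCm38.p6) for 6 of the 8 genes, Npas4, Nr4a1, Nr4a2, Nr4a3, Dusp1 and Btg2. The cAMP response element (CRE, TGACGTCA), to which CREB binds, and its core TGACG, which also lies inside the full element, were searched on both strands. The core was present in 6 of 6 members and in 20.8% of the 32851 promoters of the table. The full element was present in Btg2 and Dusp1 and in 1.79% of all promoters. The serum response element (CArG box) was found in 0 of 6 members and 1.63% of promoters, and the Nr4a binding element AAAGGTCA in 0 of 6 and 1.51%. These are matches of letters in a short window and say nothing of binding. The 4 stretches below are shown because Nr4a1 moved most closely with Arc, Npas4 had an r near 0 with it over the 22 libraries, and Dusp1 and Btg2 are the pair that holds the full element, with capitals marking the core or the full element in either orientation.
Nr4a1, chr15:101266596-101266895, plus strand: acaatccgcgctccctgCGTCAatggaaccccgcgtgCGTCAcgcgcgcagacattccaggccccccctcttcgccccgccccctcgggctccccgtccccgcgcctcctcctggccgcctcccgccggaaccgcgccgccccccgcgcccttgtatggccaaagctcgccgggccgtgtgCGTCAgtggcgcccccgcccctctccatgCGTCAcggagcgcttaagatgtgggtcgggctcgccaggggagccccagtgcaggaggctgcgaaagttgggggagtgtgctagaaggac
Npas4, chr19:4989922-4990221, minus strand: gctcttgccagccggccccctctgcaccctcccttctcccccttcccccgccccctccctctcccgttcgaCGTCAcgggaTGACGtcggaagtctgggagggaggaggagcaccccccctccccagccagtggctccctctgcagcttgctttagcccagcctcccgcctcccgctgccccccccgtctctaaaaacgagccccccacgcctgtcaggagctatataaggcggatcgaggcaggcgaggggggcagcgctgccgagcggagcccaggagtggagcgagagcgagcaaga
Dusp1, chr17:26508423-26508722, minus strand: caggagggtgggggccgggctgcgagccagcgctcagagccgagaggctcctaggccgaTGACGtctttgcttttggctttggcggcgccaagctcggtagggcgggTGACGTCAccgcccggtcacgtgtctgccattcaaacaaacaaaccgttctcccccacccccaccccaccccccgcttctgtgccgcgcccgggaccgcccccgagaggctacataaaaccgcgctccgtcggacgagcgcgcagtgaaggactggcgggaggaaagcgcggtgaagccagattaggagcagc
Btg2, chr1:134079106-134079405, minus strand: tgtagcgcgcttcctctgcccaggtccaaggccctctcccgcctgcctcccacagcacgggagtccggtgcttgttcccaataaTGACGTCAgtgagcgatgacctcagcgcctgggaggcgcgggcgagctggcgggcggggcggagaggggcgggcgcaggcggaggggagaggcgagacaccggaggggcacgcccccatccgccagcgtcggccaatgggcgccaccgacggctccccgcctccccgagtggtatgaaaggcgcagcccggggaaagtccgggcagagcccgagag
The full element began at position -143 in Dusp1 and at -166 in Btg2, counted from the annotated start. Nr4a1 held 4 copies of the core, from -233 to -40, Nr4a2 and Nr4a3 held 4 each, and Npas4 held 2, at -179 and -169. The Npas4, Nr4a1, Nr4a3 and Dusp1 stretches belong to starts that lie inside the gene models given above.

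Per kilobase of exon, Arc was the most abundant of the 8 genes, at 55.3 ± 16.1 CPM per kb over the 22 libraries (SD). The Nr4a genes followed, with Nr4a1 at 22.3 ± 5.28, Nr4a2 at 18.7 ± 3.44 and Nr4a3 at 16.2 ± 2.33 CPM per kb, and neighbours among these 3 differed by less than the larger SD of the pair. Btg2 was at 8.70 ± 1.70, Dusp1 at 6.67 ± 1.21, Npas4 at 6.03 ± 1.02 and Ier2 at 5.16 ± 1.04 CPM per kb, and Dusp1 and Npas4, like Npas4 and Ier2, differed by less than either SD. All further levels are CPM per gene, not per length.

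Arc varied between libraries of the same group more than most genes of its abundance. In WT SH its level was 103 CPM at the lowest, 155 at the median and 240.0 at the highest, and in KD SH 102, 141 and 194 CPM. In WT EE the 5 libraries were at 105, 117, 178, 187 and 210.4 CPM, and in KD EE at 134, 180.3, 215, 224 and 295 CPM. The ranges of all 4 groups overlapped, with 3 of 5 KD EE libraries above every KD SH library. The fitted log2 difference of KD EE over KD SH was 0.52 (SE 0.21, 95% confidence interval 0.09 to 0.94, adjusted p = 0.478, edgeR), and that of WT EE over WT SH was -0.05 (SE 0.21, -0.48 to 0.37, adjusted p = 0.976). The fitted biological coefficient of variation of Arc was 0.237, against 0.0935 for genes of the same abundance, a ratio of 2.54 that ranked 170 of 18482 genes.

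**Figure D1:**
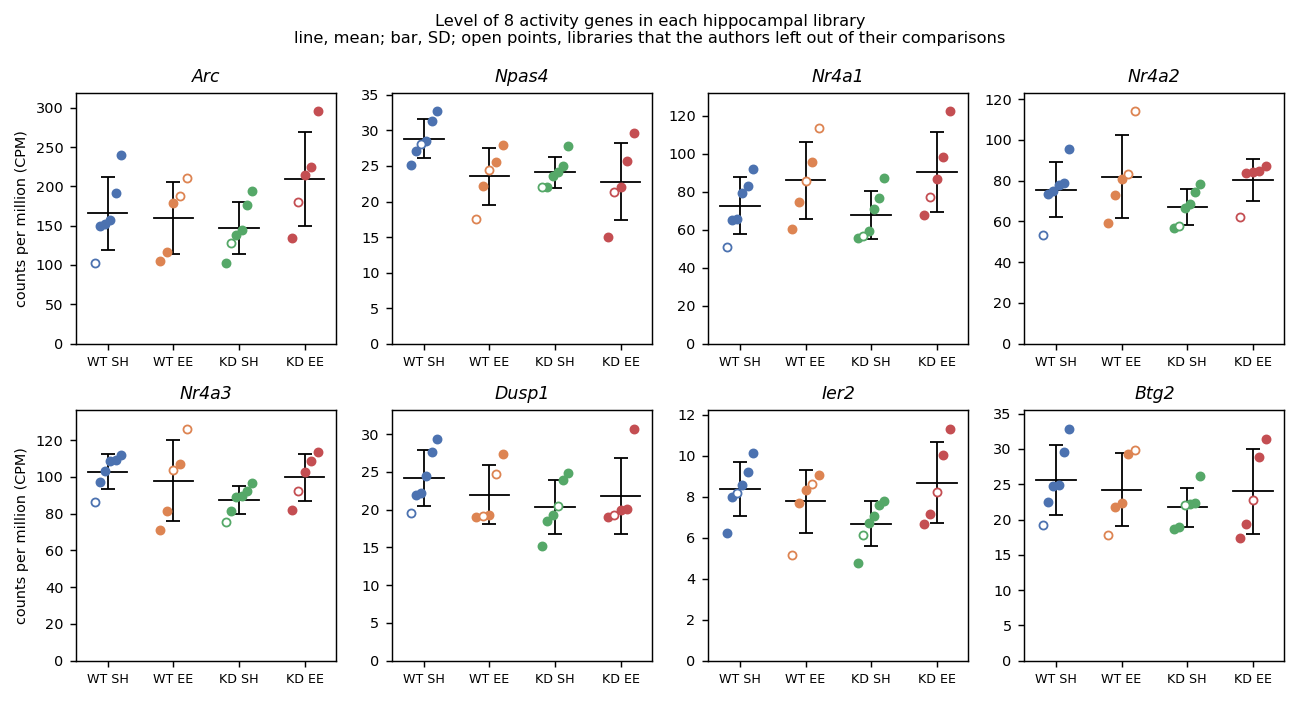
Level of the 8 genes, in CPM on linear axes from 0, in each of the 22 libraries by group. Points are libraries, lines and bars are the mean and SD of the group, and open points are the 5 libraries that the authors left out. Groups overlap for every gene, and Arc in KD EE spans 134 to 295 CPM.

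Nr4a1, a nuclear receptor induced by calcium and growth factors, was also highest on average in KD EE. Its level was 51.0, 72.5 and 91.7 CPM at the lowest, median and highest library of WT SH, and 55.4, 65.01 and 87.1 CPM in KD SH. In WT EE it was at 60.4, 74.6, 85.3, 95.7 and 113 CPM, and in KD EE at 67.5, 77.4, 86.4, 98.1 and 122 CPM. All 5 KD EE libraries lay above the median of KD SH, though only 2 lay above its highest library. KD EE over KD SH differed by 0.43 on the log2 scale (SE 0.16, 0.09 to 0.76, adjusted p = 0.478), or 0.28 without library 32A, and WT EE over WT SH by 0.24 (SE 0.16, -0.09 to 0.58, adjusted p = 0.733), or 0.12 without library 35A.

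Nr4a2 and Nr4a3 differed less between housings in MSK1 KD. Nr4a2 was at 62.2, 83.7, 84.3, 84.5 and 87.0 CPM in KD EE and between 56.8 and 78.2 CPM in KD SH, so that 4 of 5 enriched libraries lay above all of KD SH and library 9 did not. The log2 difference was 0.27 (SE 0.14, -0.01 to 0.55, adjusted p = 0.536). In WT, the range of Nr4a2 was 53.4 to 95.3 CPM in SH and 59.2 to 114 CPM in EE. The difference was 0.12 (SE 0.13, adjusted p = 0.869), or -0.035 without library 35A. Nr4a3 was between 82.2 and 114 CPM in KD EE and 75.6 and 96.7 CPM in KD SH, a difference of 0.19 (SE 0.11, adjusted p = 0.580). In WT it was between 71.0 and 126 CPM in EE and 86.6 and 112 CPM in SH, a difference of -0.07 (SE 0.11, adjusted p = 0.920), and the 5 enriched libraries lay on both sides of the standard-housed ones.

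Npas4, the calcium-responsive factor, was highest in WT SH. There it was at 25.2, 28.3 and 32.7 CPM at the lowest, median and highest library, and in KD SH at 22, 23.9 and 27.8 CPM. In WT EE its 5 values were 17.5, 22.1, 24.4, 25.6 and 28 CPM, and in KD EE 15.1, 21.4, 22.1, 25.8 and 29.7 CPM. All 5 WT EE libraries lay below the median of WT SH and 3 lay below its lowest library. The difference of WT EE over WT SH was -0.30 on the log2 scale (SE 0.13, -0.56 to -0.04, adjusted p = 0.485), and that of KD EE over KD SH was -0.07 (SE 0.13, -0.33 to 0.19, adjusted p = 0.884). Without library 35A, the WT difference was -0.21.

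Dusp1, Ier2 and Btg2 are regulators of lower abundance. Dusp1, the MAP kinase phosphatase, was between 15.2 and 30.7 CPM over the 22 libraries. In KD EE its 5 values were 19.0, 19.2, 19.9, 20.1 and 30.7 CPM, so that 4 libraries were nearly equal and 32A stood alone. Ier2, the least abundant, was at 6.66, 7.16, 8.23, 10.05 and 11.3 CPM in KD EE and at 4.79, 6.91 and 7.80 CPM at the lowest, median and highest library of KD SH. The difference was 0.38 (SE 0.16, 0.04 to 0.71, adjusted p = 0.491), or 0.24 without library 32A. Btg2 was between 17.4 and 32.9 CPM over the 22 libraries, and its lowest value in each enriched group came from 35A and 36A.

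Of the 8 genes, 0 were called in any of the 5 comparisons over 22 libraries, where a call needed an adjusted p of 0.05 or less and a 1.3-fold change, against 0% of all genes tested. In edgeR's quasi-likelihood test, 1 of 8 members had an unadjusted p under 0.05 in WT EE over WT SH (Npas4, lower), against 8.65% of all genes, or 3.4% for lower ones alone, and 3 of 8 in KD EE over KD SH (Arc, Nr4a1 and Ier2, all higher), against 9.63%, or 5.03% for higher ones alone. Without library 32A the 3 in KD EE over KD SH became 0, and without any 1 of the libraries 10, 13, 33A and 35A the count in WT EE over WT SH was 0. The ranges of the groups overlapped for 8 of 8 members in each comparison of groups, and the share of all genes whose ranges did not was 1.19% in WT EE over WT SH, 0.546% in KD EE over KD SH, 0.276% in WT SH over KD SH and 0.325% in WT EE over KD EE. With DESeq2 on the same libraries the genes called were 23 in WT EE over WT SH, 2 in KD EE over KD SH and 2 in WT SH over KD SH, with 0 members among them. Under an unadjusted p of 0.05 in DESeq2 were Npas4 in WT EE over WT SH, among 1850 genes in all. In KD EE over KD SH these were Arc, Nr4a1 and Ier2, among 2080. Both tests read the same counts, so this is not a separate result. The median log2 difference of the 8 members was -0.08 in WT EE over WT SH and 0.23 in KD EE over KD SH, and that of all genes 0.01 and 0.00. In whole tissue, fewer cells that express a gene and less RNA in each cell cannot be told apart.

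Under standard housing, the mean of every one of the 8 genes was higher in WT than in MSK1 KD. The differences of WT SH over KD SH ran from 0.11 (Nr4a1) to 0.32 (Ier2) on the log2 scale, with a median of 0.24, against -0.01 for all genes. Without library 10, Arc went from 0.17 to 0.04 and Nr4a1 from 0.11 to 0.03. An unadjusted p under 0.05 was reached by 3 of 8 members, all higher, against 5.76% of all genes, or 2.81% for higher ones alone. These were Npas4 (0.26, SE 0.12), Nr4a3 (0.23, SE 0.10) and Ier2 (0.32, SE 0.15), each with an adjusted p of 0.811. The count of 3 rested on single libraries, being 0 without 10 and 0 without 2, and 5 without 12. Over 17 libraries the differences ran from 0.15 to 0.32, again all above 0, and the members with an unadjusted p under 0.05 were 4 of 8, against 4.95% of all genes, namely Nr4a2, Nr4a3, Dusp1 and Btg2. All 6 WT libraries lay above the KD SH median for Npas4, and 5 of 6 lay above every KD SH library for Nr4a3 and for Ier2, while the sixth lay within the KD range. The comparison has the KD SH libraries in common with that of KD EE over KD SH, so these are not independent.

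Under enrichment, WT EE over KD EE gave differences between -0.39 (Arc, SE 0.22, -0.84 to 0.05) and 0.04 (Npas4), and 0 of 8 members reached an unadjusted p under 0.05, against 2.61% of all genes. Arc was at -0.23 there without library 32A and at -0.52 without 8. All 5 WT EE libraries lay below the KD EE median of Arc, 215 CPM. The interaction, which is the effect of enrichment in WT less that in MSK1 KD, was below 0 for all 8 members and between -0.57 and -0.15. Of all genes, 51.2% were above 0. The interaction is also WT EE over KD EE less WT SH over KD SH, so it is not independent of the latter. For all members but Arc and Ier2, WT EE over KD EE lay near 0. Their interaction thus largely repeats the difference under standard housing with its sign turned. Several members also moved together across libraries, so they are not 8 separate observations. With 1 library left out, Nr4a2 lay between -0.30, without 35A, and -0.05, without 17, and Nr4a1 reached -0.04 without 32A. An unadjusted p under 0.05 was reached by 1 of 8 members, Ier2, against 2.04% of all genes, or 0.703% for those below 0, and Ier2 no longer reached it when any 1 of 9 libraries was left out. It was -0.49 for Ier2 (SE 0.23, -0.95 to -0.02) and -0.57 for Arc (SE 0.29), with an adjusted p that rounded to 1 for every member. Thus the difference between the genotypes in the response to enrichment did not pass the test for any of the 8 genes, and the interval of Arc reached from -1.17 to 0.03.

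**Figure D2:**
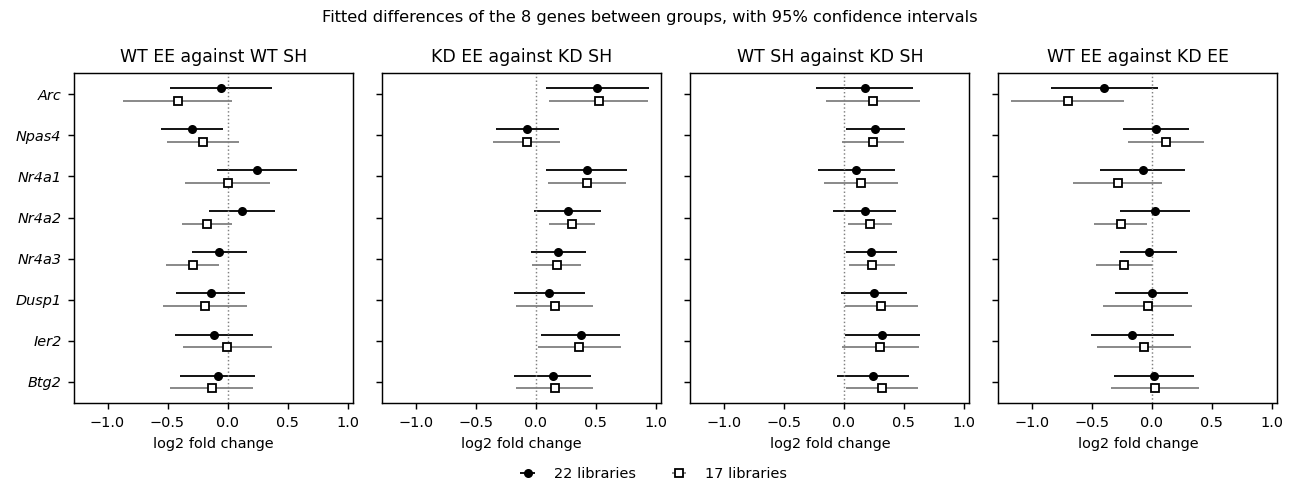
Fitted log2 fold changes of the 8 genes in 4 comparisons of groups, with 95% confidence intervals, over 22 libraries (filled circles) and over the 17 that the authors used (open squares). In KD EE over KD SH, Arc lies at 0.52 and 0.53 over the 22 and the 17, while in WT EE over WT SH it lies at -0.05 and -0.42.

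In WT EE only 16, 17 and 33A were left among the 17. Over those, Arc in WT EE was at 133 CPM on average and WT EE over WT SH was -0.42 (SE 0.22, -0.87 to 0.04, adjusted p = 0.427), whereas KD EE over KD SH stayed at 0.53 (SE 0.20, 0.11 to 0.94, adjusted p = 0.276). In WT EE over WT SH, Nr4a1 went from 0.24 to 0.00, Nr4a2 from 0.12 to -0.17, Nr4a3 from -0.07 to -0.29 (SE 0.11, adjusted p = 0.183) and Npas4 from -0.30 to -0.20, so that Nr4a3 in place of Npas4 was the 1 of 8 members with an unadjusted p under 0.05, against 13.7% of all genes. In KD EE over KD SH the same was reached by 4 of 8, Arc, Nr4a1, Nr4a2 and Ier2, against 11.3%. The genotypes under enrichment then differed by -0.70 in Arc (SE 0.23, -1.17 to -0.23, adjusted p = 0.591), and 2 of 8 members, Arc and Nr4a2, had an unadjusted p under 0.05, against 6.4% of all genes. The interaction was -0.94 for Arc (SE 0.30), -0.47 for Nr4a2 (SE 0.14) and -0.47 for Nr4a3 (SE 0.15), each with an adjusted p of 0.875, and these were the 3 of 8 with an unadjusted p under 0.05, against 5.51%. Over 17 libraries, 3.55% of all genes were called in WT EE over WT SH and 1.74% in KD EE over KD SH, 0.00535% in WT EE over KD EE and 0% in the other two comparisons, and of the 8 members 0 in any. Nr4a2 in KD EE over KD SH was the member with the lowest adjusted p in this set, 0.134, and its 4 KD EE libraries all lay above the 5 of KD SH, while the ranges did not overlap for 3.12% of all genes. Nr4a3 in WT SH over KD SH and Nr4a2 in WT EE over KD EE were the other members whose ranges did not overlap over 17 libraries, against 1.02% and 6.4% of all genes.

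The libraries of the enriched groups whose codes carry a letter held more Arc on average than those with a number alone. In WT EE the 3 lettered libraries ranged from 178 to 210.4 CPM and the 2 numbered ones from 105 to 117 CPM, while in KD EE the 2 lettered ones were at 215 and 295 CPM and the 3 numbered ones between 134 and 224 CPM. In WT EE the Nr4a genes separated too, with Nr4a1 at 85.3 to 113 CPM against 60.4 to 74.6 CPM, Nr4a2 at 80.9 to 114 against 59.2 to 72.7 CPM and Nr4a3 at 104 to 126 against 71.0 to 81.5 CPM, and Npas4 lay the other way, at 17.5 to 24.4 CPM against 25.6 to 28 CPM. In KD EE only Nr4a1 and Nr4a2 separated, with the lettered libraries higher, though Nr4a2 only by 84.5 against 84.3 CPM at the nearest. The share of all genes that separate in this way was not counted, and with 2 libraries against 3, ranges often separate by chance. The separations in WT EE and KD EE are therefore a description. Standard-housed libraries carry no letters, so that within the lettered ones no effect of housing can be computed. Among the numbered libraries alone, Arc was -0.57 in WT EE over WT SH and 0.29 in KD EE over KD SH, and Nr4a3 in WT was -0.42 with an adjusted p of 0.0518, the lowest of any member in any fit. The members with an unadjusted p under 0.05 were then 3 of 8 in WT EE over WT SH (Arc, Nr4a3 and Dusp1, all lower), against 14.2% of all genes, and 0 of 8 in KD EE over KD SH, against 6.08%. They were 5 of 8 in WT SH over KD SH, against 6.09%. The libraries of that comparison are the same as in the main fit, which gave 3 of 8. Only the filter, the scaling and the shared estimate of the spread differ, so the 5 are no further evidence. Arc and Nr4a3, 2 of 8, reached that p both in WT EE over KD EE, against 8.59%, and in the interaction, against 7.91%. Neither the labels nor the methods say what a letter stands for, and its part in the results was not tested.

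Libraries of the same group held more or less of several members together, so the deviation of each library from its group mean was followed gene by gene. Library 10 (WT SH), 31B (WT EE), 1 (KD SH) and 32A (KD EE) lay above their group mean for 8 of 8 members, and 12 (WT SH) and 9 (KD EE) lay below for 8 of 8. In 32A the mean deviation was 0.37 on the log2 scale, and in 12 it was -0.32. Libraries 35A (WT EE) and 36A (KD EE) did otherwise. In 35A, Arc and the Nr4a genes were 0.45 above their group mean on average, and Npas4, Dusp1, Ier2 and Btg2 were 0.39 below it (-0.39). In 36A the same averages were 0.13 and -0.35. These 2 sets of 4 genes were formed after their values were seen, and are a description of these libraries. Library 35A also had the largest share of reads assigned to no single gene, 18.6%, against 14.05% to 16.1% in the other 21, while 36A was at 15.1%.

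**Figure D3:**
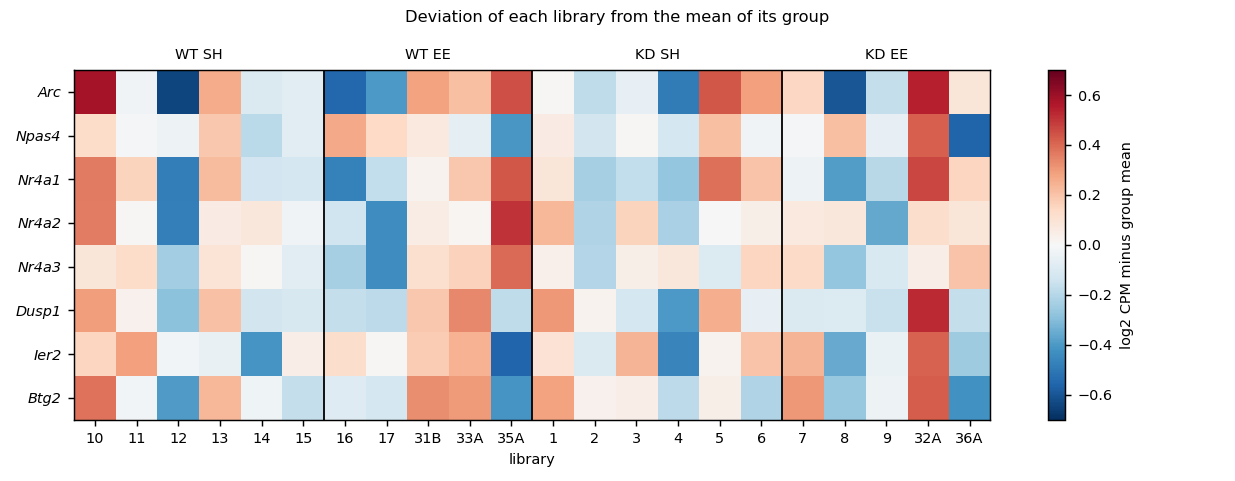
Deviation of each of the 22 libraries (columns, by group) from the mean of its group for the 8 genes (rows), as log2 CPM, with red above and blue below the mean. Columns of a single colour are libraries such as 32A and 12, while 35A and 36A change colour between the genes.

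Arc and Nr4a1 were the members that moved most closely together. Over the 22 libraries, the deviations of Arc and Nr4a1 had a Pearson's r of 0.94 (p = 1e-05, the smallest that 100000 permutations within groups can give) and a Spearman's rho of 0.95 (p = 1e-05), both with an adjusted p of 0.00028. Without the 2 libraries farthest from the median of Arc, 12 and 8, r was 0.92. Within WT SH alone it was 0.95 and within KD SH 0.93 (n = 6 each). Of the 18481 other genes tested, Nr4a1 had the highest r with Arc, and Arc the highest with Nr4a1.

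All 28 pairs of members were compared in this way, with p adjusted over the 28 by the Benjamini-Hochberg method. An r of 0.5 or more was reached by 14 of 28 pairs, against 5.51% of all pairs of genes tested, whose median r was -0.002, and 11 pairs had an adjusted p of 0.05 or less. The 6 pairs among Arc and the Nr4a genes had an r between 0.67 and 0.94. Within WT SH alone these 6 lay between 0.81 and 0.95, but within KD SH between -0.02 (Arc and Nr4a3) and 0.93, with Nr4a1 and Nr4a3 at 0.08 (n = 6 each). Dusp1 and Btg2 had an r of 0.80 (rho 0.77, adjusted p = 0.00042 and 0.0028, r of 0.74 without 32A and 33A). Arc and Dusp1 had an r of 0.69 (rho 0.62, adjusted p = 0.00763 and 0.0227, r of 0.68 without 12 and 8).

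**Figure D4:**
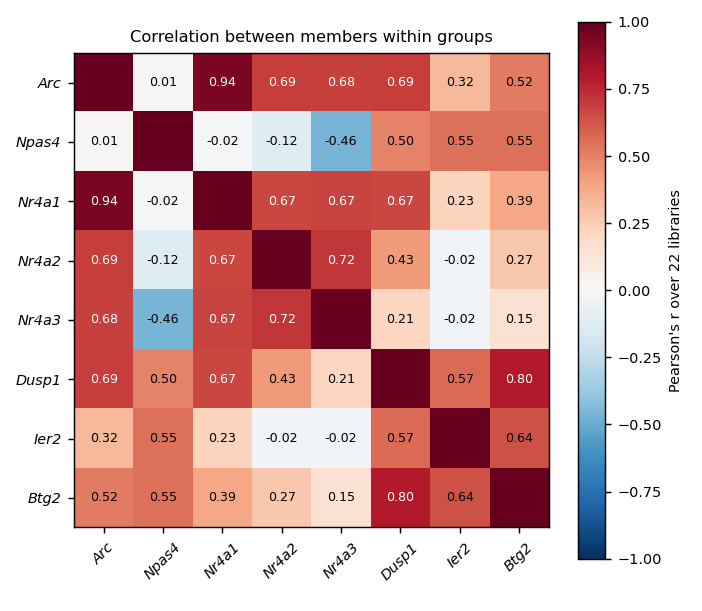
Pearson's r between the 8 genes over 22 libraries, computed on log2 CPM less the group mean, on a colour scale from -1 to 1. Arc and Nr4a1 reach 0.94, and Npas4 lies at 0.01 with Arc and -0.46 with Nr4a3.

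Npas4 did not follow Arc. The pair had an r of 0.01 (p = 0.972) and a rho of 0.12 (p = 0.616), and r was 0.10 without the libraries 12 and 8. Npas4 and Nr4a3 had an r of -0.46 (p = 0.0762, adjusted p = 0.125) and a rho of -0.36. Libraries 35A and 36A weighed on these values. Without both, a choice made after the data were seen, Arc and Npas4 had an r of 0.31, Arc and Btg2 0.82 in place of 0.52, Nr4a1 and Btg2 0.75 in place of 0.39, and 17 of 28 pairs had an adjusted p of 0.05 or less. Under standard housing, where neither of them belongs, Arc and Npas4 had an r of 0.60 in WT SH and 0.80 in KD SH (n = 6 each).

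**Figure D5:**
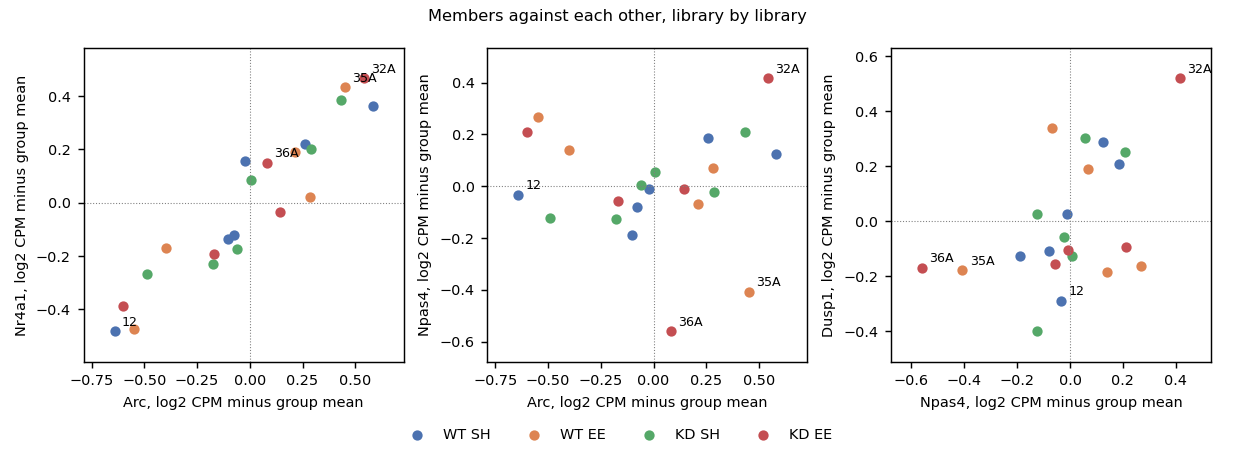
Nr4a1 against Arc, Npas4 against Arc and Dusp1 against Npas4, each as log2 CPM less the group mean, with 1 point for each of the 22 libraries, coloured by group. Arc and Nr4a1 fall along a line, while 35A and 36A lie low in Npas4 at Arc values above their group mean.

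Other activity genes were drawn from 3 lists, 18 transcription factors, 18 signal and RNA regulators and 15 late effectors. The genes most like Arc outside the members were Fos (r = 0.92), Egr2 (0.89) and Egr1 (0.84), all transcription factors of the immediate-early class, and those most like Nr4a1 were Egr2 (0.87), Fos (0.86) and Frmd6 (0.86). For Dusp1 they were Apold1 (0.80), Fos (0.79) and Cyr61 (0.78), and for Btg2 Tsn (0.78), Cyr61 (0.77) and Ush1g (0.75). For Nr4a2 they were Nrip1 (0.84), Zfp658 (0.84) and Fastkd5 (0.83), and for Nr4a3 Nedd4l (0.91), Trim2 (0.91) and Cblb (0.90). For Ier2 they were Epm2a (0.79), Thsd7b (0.71) and Kif26a (0.69), and for Npas4 Gm45619 (0.80), Zfp641 (0.79) and Ninl (0.79). Each r is over 22 libraries and was picked as the highest of all genes tested, so it is a description. Without 35A and 36A, Fos stayed at 0.91 with Arc while Ninl went to 0.38 with Npas4.

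The 51 genes of the 3 lists had a median r of 0.50 with Arc, 0.52 with Nr4a1, 0.50 with Nr4a3 and 0.42 with Nr4a2. It was 0.21 with Dusp1, 0.08 with Btg2, 0.02 with Ier2 and -0.27 with Npas4, while the median over all genes was between -0.03 and 0.00 for each member. An r of 0.5 or more with Arc was found for 26 of the 51, against 6.81% of all genes, and with Npas4 for 0 of 51, against 2.45%, with 43 of the 51 below 0. The low values rested on 35A and 36A. Without both, a choice made after the data were seen, the median r was 0.49 with Btg2, 0.44 with Dusp1, 0.37 with Ier2 and 0.12 with Npas4, for which 14 of 51 were below 0, while it was 0.54 with Arc. The differences between the members in these medians were not tested.

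In KD EE over KD SH, 46 of the 51 genes had a fitted difference above 0 and 18 had an unadjusted p under 0.05, all higher, against 5.03% of all genes, with 0 called. Of all genes, 50.9% were above 0 in this comparison. Many of the 51 move together, with a median r of 0.50 with Arc, so they are not separate observations. The 3 members under that p in this comparison became 0 without library 32A. For the 51 genes, counts without single libraries were not made. By list, the median log2 difference was 0.32 for the transcription factors (18 of 18 above 0), 0.21 for the regulators (14 of 18) and 0.17 for the late effectors (14 of 15). The lowest p belonged to Vgf, a secreted neuropeptide precursor, at 239 ± 18.6 CPM (SD, n = 5) in KD EE and 186 ± 15.2 (n = 6) in KD SH, a log2 difference of 0.36 (SE 0.07, adjusted p = 0.150). Over 17 libraries Vgf was called, at 0.38 (SE 0.08, adjusted p = 0.00626), and it was the only called gene of the 3 lists in any of the 5 comparisons in either set, 1 of 51 against 1.74% of all genes in that comparison. Next came Dusp5, a MAP kinase phosphatase, at 0.66 (SE 0.18, adjusted p = 0.453) and Klf2, a zinc-finger factor, at 0.56 (SE 0.19, adjusted p = 0.457).

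In WT EE over WT SH, 39 of the 51 were above 0 and 9 had an unadjusted p under 0.05, all higher, against 5.24% of all genes, with 0 called. Of all genes, 52.1% were above 0. The list medians were 0.15, 0.07 and 0.15 in the same order. The lowest p were those of Vgf (0.23, SE 0.07, adjusted p = 0.399), Sgk1, a kinase induced by glucocorticoids (0.68, SE 0.22, adjusted p = 0.403), and Nptx2, a secreted pentraxin of excitatory synapses (0.49, SE 0.17, adjusted p = 0.411). Over 17 libraries, the median of the transcription factors in WT was -0.07, with 8 of 18 above 0, and that of the late effectors -0.02, with 5 of 15 above 0, so the direction of both rests on which libraries are used, while that of the regulators was 0.04. At an unadjusted p under 0.05 in WT over these 17, 0, 2 and 1 genes of the lists, in the same order, were higher. Lower ones numbered 1, 2 and 0, and 13.7% of all genes reached that p in either direction. In MSK1 KD the medians over 17 libraries were 0.40, 0.26 and 0.15.

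In WT SH over KD SH the list medians were 0.10, 0.04 and 0.05, and the lowest p were those of Junb (0.41, SE 0.14), Vgf (0.17, SE 0.07) and Egr4 (0.37, SE 0.16), each with an adjusted p of 0.811. In WT EE over KD EE the medians were close to 0, with 0.04 for the late effectors, but over 17 libraries -0.25, -0.12 and -0.04, with 16 of 18, 15 of 18 and 10 of 15 below 0. The lowest p over 22 libraries were those of Trib1 (-0.31, SE 0.13), Spry4 (-0.24, SE 0.14) and Dusp6 (-0.17, SE 0.11), each with an adjusted p that rounded to 1. The interaction gave medians of -0.20, -0.06 and 0.02, and over 17 libraries -0.48, -0.20 and -0.14, so that the median of the late effectors was on the other side of 0. The lowest p over 22 libraries were those of Junb (-0.44, SE 0.20), Fos (-0.62, SE 0.35) and Ier3 (0.30, SE 0.18), each with an adjusted p that rounded to 1.

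Genes that stand above the members in the pathway gave 0 calls. For the 14 inducers, among them Creb1 and Srf, the median log2 difference was -0.01 in WT EE over WT SH, where 3 of 14 were lower at an unadjusted p under 0.05, against 3.4% of all genes. In KD EE over KD SH 6 of 14 were above 0 and 1 was lower at that p, against 4.6%. Over 17 libraries all 14 were below 0 in WT EE over WT SH, with a median of -0.12 and 4 lower at that p, against 4.52%. For the relatives of the members, such as Npas1 to Npas3, Btg1 and the Rxr genes, 10 of 11 were tested, and the medians were -0.11 and 0.03, with 0 called. At an unadjusted p under 0.05, 2 of 10 were lower in WT EE over WT SH, against 3.4% of all genes. In KD EE over KD SH, 1 was higher, against 5.03%, and 2 were lower, against 4.6%.

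Relations of the members with markers of other cells did not pass correction. The 8 members were compared with 15 measures of the libraries, 12 marker lists and 3 measures of the reads, which gave 120 relations of within-group deviations with p adjusted over all of them, and the lowest adjusted p was 0.2. It belonged to Nr4a3 with 6 dentate gyrus markers (r = 0.54, p = 0.00167, rho = 0.55, p = 0.00884, and r = 0.60 without 5 and 12). Arc had an r of -0.61 with 5 blood markers (p = 0.00361, adjusted p = 0.217, rho = -0.58, p = 0.0102, and r = -0.56 without 17 and 35A). Nr4a3 had an r of -0.68 with the same markers (p = 0.0185, adjusted p = 0.359, rho = -0.41, p = 0.125), which was -0.36 without 17 and 35A and so rests largely on them. The blood markers summed to between 37.2 and 49.7 CPM in WT SH, 29.4 and 128 in WT EE, 47.4 and 81.1 in KD SH and 51.2 and 60.7 in KD EE, and their part in the results was not tested.

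The choroid plexus markers, all 10 of which were detected, were higher in most enriched libraries. They summed to between 29.2 and 233 CPM in WT SH, 26.4 and 730.3 in WT EE, 23.3 and 347 in KD SH and 50.2 and 677 in KD EE. The libraries that the authors left out were those at odds with their housing, with 30.2 CPM in 31B, 26.4 in 35A and 50.2 in 9, all enriched, and 233 in 12 and 347 in 2, both standard-housed. Among the 17 that remain, the enriched libraries lay between 133 and 730.3 CPM and the standard-housed ones between 23.3 and 124 CPM. Over these 17, the markers and housing thus cannot be told apart in either genotype. This holds for Arc in WT EE over WT SH (-0.42) and in KD EE over KD SH (0.53), and for the call of Vgf. Arc had an r of -0.47 with them within groups (p = 0.0494, adjusted p = 0.494, rho = -0.51, p = 0.0298, and r = -0.39 without 2 and 12). With the choroid score as a term of the model, Arc in KD EE over KD SH was 0.77 (adjusted p = 0.246), and in WT EE over WT SH 0.10 (adjusted p = 0.926), with 0 of the 8 members called in any comparison, against 0% of all genes. The members with an unadjusted p under 0.05 in that model were 2 of 8 in WT EE over WT SH (Npas4 and Nr4a1), against 7.7% of all genes, and 4 of 8 in KD EE over KD SH (Arc and the 3 Nr4a genes, without Ier2), against 13%. They were 3 of 8 in WT SH over KD SH, against 7.01%, 1 of 8 in WT EE over KD EE (Arc), against 3.78%, and 3 of 8 in the interaction (Arc, Nr4a3 and Ier2), against 3.16%.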

How the data were processed

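Libraries were made by the authors from poly-A RNA as paired-end reads, aligned to GRCm38 with STAR 2.5 and counted per gene with HTSeq, without regard to strand and with unique alignments only. The deposited counts, 1 table per library, are raw and not normalized. A further table of normalized values from the authors was not used here. Reads on no gene or on several were left out of library sizes.

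From these counts, genes were filtered with filterByExpr, scaled by TMM and fitted with 1 mean for each of the 4 groups by the quasi-likelihood test of edgeR 4.0.16 in R 4.3.3, and the Benjamini-Hochberg adjustment ran over all 18482 genes. Called genes had an adjusted p up to 0.05 and moved by at least 0.38 on the log2 scale, as in the study's own tests. All tests were two-sided. CPM used TMM-scaled library sizes. Correlations used log2 CPM (prior count 2) less the group mean and 100000 permutations within groups. The 8 genes and all lists were chosen with earlier results of these data known. Named genes were the 8 members, the 3 activity genes of lowest p in each comparison, every called gene of the lists, and the 3 genes most like each member. The labels do not say that each library is a separate mouse, so p-values measure the spread between libraries, which may be technical. The fit was tested on simulated data first. Alternatives were other library sets, DESeq2 1.42.0, other scalings and filters, a choroid score and leaving out each library.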

Additional observations from a re-analysis of the deposited data

Results flagged for a closer look

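Among 32 sets of libraries (8 genes in 4 groups), 2 had a library that stood apart by Dixon's test, which chance does in about 1 set of 20. In KD EE, Nr4a2 was at 62.2 CPM in library 9 and between 83.7 and 87.0 CPM in the other 4. In the same group, Dusp1 was at 30.7 CPM in library 32A and between 19.0 and 20.1 CPM in the other 4. No reason was tested for either.

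The libraries that failed quality control were outside every comparison but held counts of the members. In 33B (WT EE), with 54.1% of reads assigned to no single gene, 8 of 8 members had more than 3 counts, with Arc at 190.2 CPM, Nr4a1 at 99.5 CPM, Npas4 at 25.1 CPM and Dusp1 at 28.7 CPM, all within the range of the 22 libraries. In 34B (KD EE), with 16442 counts on genes in all, only 1 of 8 members, Arc, had more than 3 counts.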

How the results depend on the processing

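Of the 1232 results of members under an alternative, 1186 kept the direction of the 40 main ones, 46 reversed and 0 were called. Most alternatives kept all 22 libraries or left out 1, so the same direction was largely built in. Most reversals were in WT EE over KD EE, where the main differences of all members but Arc and Ier2 lay near 0, and in WT EE over WT SH. The number of genes called depended on the libraries. It was 0 in all 5 comparisons over 22 libraries. In WT EE over WT SH it was 664 over 17 libraries, 1 over 24, 23 with DESeq2, 7 with no filter on low counts and 314 without the lettered libraries. In KD EE over KD SH it was 325 over 17 libraries and 2 with DESeq2, in WT SH over KD SH 2 with DESeq2, and in WT EE over KD EE 1 over 17 libraries. Leaving out each library in turn gave 0 to 1 in KD EE over KD SH and in WT EE over KD EE, the 1 without library 9. Of the pairs of members, 11 of 28 had an adjusted p of 0.05 or less, 6 over 17 libraries and 17 without 35A and 36A, which was chosen after seeing the data. The cause of these shifts was not tested.

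In WT EE over WT SH, the log2 difference reversed with the choroid score for Arc (0.10) and Nr4a3 (0.0064), without the lettered libraries for Nr4a1 (-0.10) and Nr4a2 (-0.19), and over 17 libraries for Nr4a2 (-0.17). Leaving out each library gave -0.18 to 0.080 for Arc, -0.035 to 0.21 for Nr4a2, -0.18 to 0.025 for Nr4a3, -0.19 to 0.0064 for Ier2 and -0.17 to 0.0058 for Btg2. In KD EE over KD SH, Dusp1 was -0.029 without the lettered libraries, and leaving out each library gave -0.057 to 0.18 for Dusp1, lowest without 32A, and -0.20 to 0.062 for Npas4, highest without 36A. In WT EE over KD EE, over 17 libraries, with the choroid score and without the lettered libraries, Nr4a2 was -0.26, -0.040 and -0.22 and Dusp1 -0.033, -0.0084 and -0.041, and Btg2 was -0.087 without the lettered libraries. Leaving out each library there gave -0.091 to 0.16 for Npas4, -0.20 to 0.068 for Nr4a1, -0.13 to 0.12 for Nr4a2, -0.14 to 0.071 for Nr4a3, -0.094 to 0.17 for Dusp1 and -0.085 to 0.15 for Btg2. With each library left out in turn, Arc in KD EE over KD SH stayed between 0.35, without 32A, and 0.64, without 8. Its values without the lettered libraries and with the choroid score, given above, lay outside that range.

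No paired analysis was possible because the library codes are unique to each library, so that the groups share no replicate numbers. With 5 or 6 libraries per group, the intervals of the members are wider than most of their differences.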
